A study of Mus musculus with 109 samples.

Results

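Heme and iron genes were followed across mouse retinas that had received the cytokines IL1A and TNF. The genes were Hmox1 and Blvrb (heme breakdown), Fth1 and Ftl1 (iron storage), Slc40a1 and Cp (iron export), and Tfrc and Slc11a1 (iron uptake and transport). These 8 genes were chosen from the 37315 genes of the count table by their known roles and because Hmox1 had the smallest adjusted p of all genes in IL1A+TNF retinas of batch 1, where it was higher than in PBS retinas. The values of that comparison therefore chose the genes, and are given below as a description without a test. All 8 were found in the table under 1 identifier each.

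Whole retinas of 64 mice, aged 2-4 months by the series description, were sequenced as bulk RNA, and 45 of these mice gave both retinas. Every eye had an intravitreal injection, a delivery into the vitreous next to the retina, so no group was uninjected. Wild-type (WT) mice were C57BL/6J, and Sarm1-/- mice lacked Sarm1, a NAD-consuming enzyme that drives axon degeneration. Batch 1, as the labels call it, held WT retinas only: 31 with PBS, 8 with TNF, 9 with IL1A and 10 with IL1A+TNF at day 2, then 7 with PBS and 6 with TNF at day 14, and 6 with PBS and 9 with TNF at day 35. Batch 2 held day 2 retinas only: 5 WT with PBS, 6 WT with IL1A+TNF, 6 Sarm1-/- with PBS and 6 Sarm1-/- with IL1A+TNF. Totals ranged from 30014757 to 79064488 counts on genes (median 39374202), and each library of batch 2 held at least 42875980. Sarm1 itself was lower in Sarm1-/- than in WT PBS retinas (log2 fold change -1.40 ± 0.12 SE, adjusted p = 1.23e-06).

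Heme oxygenase 1, the product of Hmox1, opens the heme ring and releases iron, carbon monoxide and biliverdin, which biliverdin reductases turn into bilirubin. Free iron is stored in ferritin, a shell of heavy (Fth1) and light (Ftl1) chains. It leaves the cell through ferroportin (Slc40a1), helped by the ferroxidase ceruloplasmin (Cp), which Müller glia and astrocytes make in the retina. Iron enters most cells through the transferrin receptor (Tfrc), while Slc11a1 moves metals out of the phagosomes of macrophages and neutrophils. Too much iron harms photoreceptors, and inherited loss of ceruloplasmin leads to retinal degeneration.

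Cells tune ferritin, ferroportin and the transferrin receptor through iron-responsive elements, short RNA hairpins bound by iron regulatory proteins when iron is scarce. A hairpin in the 5′ UTR blocks translation, and hairpins in the 3′ UTR of Tfrc protect the mRNA from decay. They are shown because the counts measure mRNA only, so a block on ferritin translation could not be seen here, while a change in Tfrc mRNA stability could enter its count. The search on the transcript strand of GENCODE M21 models (GRCm38) took a bulged C, 5 bases, the loop CAGTGN with N other than G, and 5 bases that pair with the first 5, G-U pairs allowed. The loop is in capitals:
Fth1, 5′ UTR, chr19:9982738-9982754, + strand: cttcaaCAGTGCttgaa
Ftl1, 5′ UTR, chr7:45459785-45459801, - strand: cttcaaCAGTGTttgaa
Tfrc, 3′ UTR, chr16:32631225-32631241, + strand: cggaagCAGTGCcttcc
Tfrc, 3′ UTR, chr16:32631604-32631620, + strand: cgggagCAGTGTcttcc
Tfrc, 3′ UTR, chr16:32631669-32631685, + strand: cggagaCAGTGAtctcc
Tfrc, 3′ UTR, chr16:32631716-32631732, + strand: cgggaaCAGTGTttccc

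A further match lay in the 5′ UTR of Slc40a1 (chr1:45925471-45925487, - strand), and none lay in the UTRs of Hmox1, Blvrb, Cp or Slc11a1. Such a match was rare in the annotation: 23 of 21877 coding genes (0.105%) had one in a 5′ UTR and 100 (0.457%) in a 3′ UTR. A match is a description of the letters, and protein binding was not measured. The Fth1 and Ftl1 elements differed only in the last base of the loop.

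The levels of the 8 genes spanned a wide range in PBS retinas. Per kilobase of exon, as means over the 31 WT PBS retinas of day 2, Ftl1 stood at 129 CPM (counts scaled to a common library total), Fth1 at 95.8, Cp at 60.6, Tfrc at 29.7, Hmox1 at 5.01, Blvrb at 1.01, Slc11a1 at 0.972 and Slc40a1 at 0.714. On this measure both ferritin chains were the most abundant and the exporter ferroportin the least. The length joins the exons of all annotated transcripts of a gene, and the order depends on it. Undivided means were 580 CPM for Cp, 332 for Fth1, 184 for Tfrc, 173 for Ftl1 and 8.77 for Hmox1. They were 6.43 CPM for Slc40a1, 3.60 for Slc11a1 and 2.80 for Blvrb. In the 10 IL1A+TNF retinas of batch 1 Hmox1 stood at 79.4 CPM per kilobase and passed Tfrc at 20.2. The other CPM values below are not divided by length and compare 1 gene between retinas.

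Markers of Müller glia, the main glia of the retina, were abundant: 7 of them summed to 3689 ± 501 CPM (SD, n = 31) in WT PBS retinas of day 2, and none was at 0. Red cells, a source of heme, left little RNA: 7 erythrocyte markers summed to 18.3 ± 5.17 CPM (SD, n = 31) in PBS retinas of day 2 and lay between 15.6 and 23.2 CPM (n = 9) in IL1A retinas, with Hbb-bs the most abundant and none at 0. Since mature red cells hold little RNA, this sum does not measure hemoglobin. In bulk tissue, more cells of a type and more RNA per cell cannot be told apart.

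Hmox1 (ENSMUSG00000005413, chr8:75093621-75100589) was low in PBS retinas of day 2, from 4.13 to 25.4 CPM with a median of 7.69 (n = 31). With IL1A alone it lay between 19.5 and 98.9 CPM (median 39.0, n = 9). With IL1A+TNF it lay between 85.5 and 169 CPM (median 142, n = 10). All 10 IL1A+TNF retinas were above every PBS retina and 9 of 10 above every IL1A retina, while the IL1A group overlapped the PBS group in 3 of 9 retinas.

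**Figure D1:**
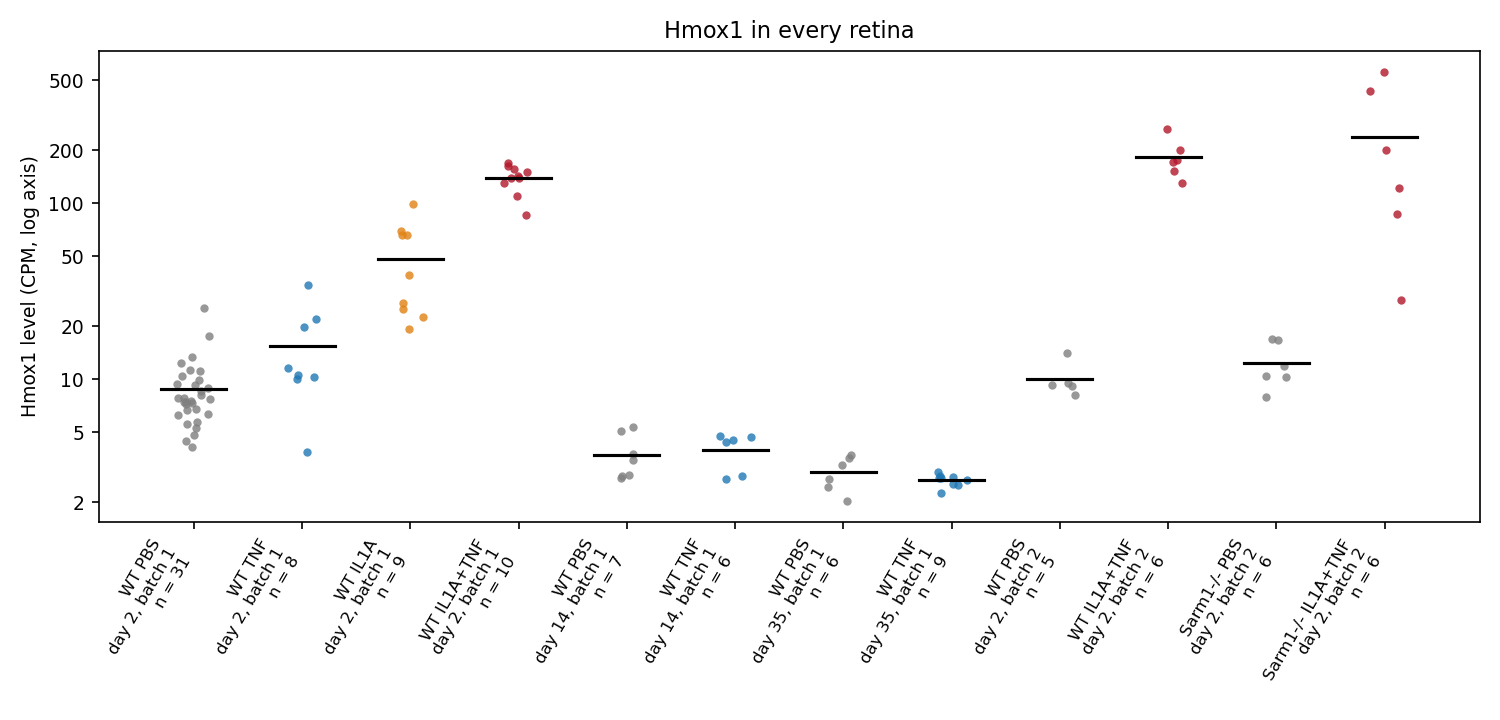
Hmox1 level in every retina (points, CPM on a log axis) by genotype, injection, day and batch, with the group mean as a bar. PBS retinas of day 2 in batch 1 center on 8.77 CPM, IL1A retinas on 48.3 CPM and IL1A+TNF retinas on 139 CPM, and the Sarm1-/- IL1A+TNF retinas spread from 28.3 to 558 CPM.

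IL1A raised 7 of the 8 genes at day 2, where 21.4% of all 19548 genes tested were called. The IL1A and TNF comparisons used retinas that did not choose the genes, but share the PBS retinas of the comparison that did. Hmox1 rose 5.15-fold (log2 fold change 2.36 ± 0.21 SE, adjusted p = 3.6e-13). In 7 mice with an IL1A and a PBS retina, the IL1A retina had more Hmox1 in 6, with ratios from 0.985 to 12.1. Blvrb, the biliverdin reductase known also as flavin reductase, moved less: it lay between 3.25 and 4.59 CPM (median 3.90) with IL1A and between 1.65 and 3.83 CPM (median 2.82) with PBS, overlapping in 4 of 9 retinas (log2 fold change 0.47 ± 0.10, adjusted p = 0.000164).

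Cp and Slc40a1, the export genes among the 8, rose with IL1A. In a list of 5 iron export genes, 4 were tested and 2 were called higher with IL1A, where 12% of all genes were. These 2 were Cp and Slc40a1 themselves, so the count restates them. Cp lay between 814 and 1804 CPM (median 1315) with IL1A and between 345 and 902 CPM (median 549) with PBS, and 8 of 9 IL1A retinas were above every PBS retina. Its log2 fold change was 1.23 ± 0.13 (adjusted p = 4.26e-11). Slc40a1 lay between 7.69 and 17.4 CPM (median 11.2) with IL1A and between 4.92 and 7.99 CPM (median 6.51) with PBS, and 8 of 9 IL1A retinas again exceeded all PBS retinas. Its log2 fold change was 0.83 ± 0.09 (adjusted p = 2.65e-11).

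Both ferritin chains rose with IL1A, the light chain more than the heavy one in size. Ftl1 lay between 182 and 367 CPM (median 269) with IL1A and between 116 and 260 CPM (median 170) with PBS (log2 fold change 0.66 ± 0.11, adjusted p = 3.32e-06). Fth1 lay between 363 and 524 CPM (median 441) with IL1A and between 273 and 404 CPM (median 332) with PBS (log2 fold change 0.40 ± 0.07, adjusted p = 5.51e-06). For each chain 6 of 9 IL1A retinas exceeded all PBS retinas. Of the uptake genes, Slc11a1 rose, from 1.82-6.61 CPM (median 3.21) with PBS to 3.92-12.8 CPM (median 7.60) with IL1A (log2 fold change 1.18 ± 0.19, adjusted p = 2.86e-06). Tfrc did not pass: it lay between 131 and 188 CPM with IL1A and between 146 and 245 CPM with PBS (log2 fold change -0.14 ± 0.07, adjusted p = 0.111).

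TNF alone called none of the 8 genes at day 2, against 0.655% of all genes tested (0.0865% without TNF replicate 7 and 2.25% without replicate 6). Hmox1 lay between 3.88 and 34.6 CPM (median 11.1, n = 8), with 7 of 8 retinas above the PBS mean, 1 above every PBS retina and 1 below every PBS retina (log2 fold change 0.71 ± 0.27, adjusted p = 0.355). The low retina was TNF replicate 6, which was also the lowest of its group for Slc11a1 at 0.769 CPM. Without it Hmox1 had a log2 fold change of 0.97 (adjusted p = 0.0147) and Slc11a1 of 0.74 (adjusted p = 0.0183), and both were called higher, where 2.25% of all genes were called. With all 8 TNF retinas Slc11a1 had a log2 fold change of 0.42 ± 0.24 (adjusted p = 0.726), and the other 6 genes between 0.06 (Fth1) and 0.24 (Blvrb).

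In the IL1A+TNF retinas of batch 1, whose values chose the genes, 50.4% of all genes were called. The 8 genes were among them, from which nothing is read since these values chose them. Hmox1 was 16.5-fold the PBS level (log2 fold change 4.05 ± 0.20 SE), Slc11a1 3.76-fold, Ftl1 2.72-fold, Slc40a1 2.43-fold, Cp 2.31-fold, Blvrb 1.65-fold, Fth1 1.601-fold and Tfrc 0.681-fold. The genes ranked next to Hmox1 were Cebpa, Gad1-ps and Arl11, with log2 fold changes from 2.03 to 2.62.

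The genes differed in what TNF added to IL1A in this experiment. Against IL1A alone, IL1A+TNF retinas had log2 differences of 1.68 ± 0.22 SE for Hmox1, 0.78 ± 0.14 for Ftl1, 0.74 ± 0.21 for Slc11a1, 0.45 ± 0.10 for Slc40a1 and -0.41 ± 0.08 for Tfrc. For Cp the difference was -0.02 ± 0.16, and the IL1A+TNF retinas (1108 to 1560 CPM) lay inside the IL1A range. Set against the sum of the separate IL1A and TNF changes, the combined log2 change was higher by 0.98 ± 0.34 for Hmox1 and by 0.60 ± 0.18 for Ftl1, and lower for Tfrc (-0.52 ± 0.10). For Blvrb it was 0.01 ± 0.15 and for Cp -0.13 ± 0.21. These values share the retinas that chose the genes and carry no test.

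**Figure D2:**
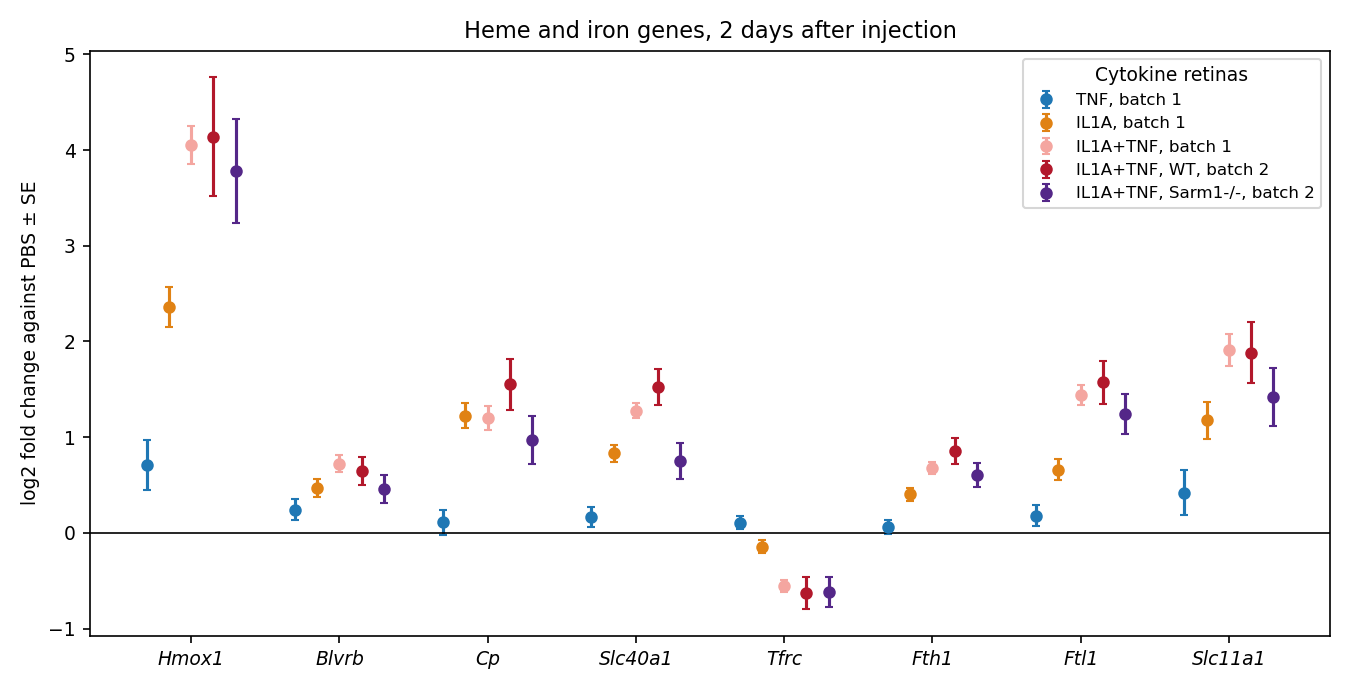
Log2 fold change against PBS (points) ± SE (bars) of the 8 genes at day 2, for TNF, IL1A and IL1A+TNF retinas of batch 1 and for WT and Sarm1-/- IL1A+TNF retinas of batch 2. Comparisons of batch 1 share their 31 PBS retinas, and the batch 1 IL1A+TNF points chose the genes. Hmox1 is the highest gene in each comparison, and Tfrc lies below 0 with IL1A+TNF.

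Batch 2 gave WT retinas that the ranking had not used, although earlier results from them were known. All 8 genes were called, 7 higher and Tfrc lower, against 20.9% of 19668 genes tested. That share was 12.8% without WT PBS replicate 4 and 11.7% with the mouse as a fixed factor. It was 54.8% when both batches were fitted together, but the WT change of that fit also rests on the batch 1 retinas that chose the genes. The PBS and IL1A+TNF groups did not overlap for any of the 8. This is a description, since the share of all genes without overlap is not given here. Hmox1 was 8.18, 9.15, 9.33, 9.56 and 14.1 CPM in the 5 PBS retinas and between 131 and 264 CPM (median 174) in the 6 IL1A+TNF retinas. The rise was 17.6-fold (log2 fold change 4.14 ± 0.62, adjusted p = 9.22e-05), and in the 5 mice with both retinas the ratio was between 14.3 and 18.9.

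Tfrc, the gene with hairpins in its 3′ UTR, was 188, 190, 218, 220 and 226 CPM in the PBS retinas and between 119 and 165 CPM (median 128) in the IL1A+TNF retinas of WT mice. It fell in 5 of 5 mice with both retinas (log2 fold change -0.63 ± 0.17, adjusted p = 0.0108). Slc40a1 was 4.97, 5.26, 5.63, 7.07 and 7.38 CPM with PBS and between 14.8 and 26.4 CPM (median 16.2) with IL1A+TNF, a log2 fold change of 1.52 ± 0.19 (adjusted p = 1.47e-05). Cp was between 416 and 648 CPM with PBS and between 1350.0 and 1690.0 CPM with IL1A+TNF (log2 fold change 1.55 ± 0.26, adjusted p = 0.00032). Cp and Slc40a1 were thus higher and the uptake receptor lower in the same retinas.

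In the same WT retinas Ftl1 was 166, 176, 196, 220 and 245 CPM with PBS and between 477 and 907 CPM (median 572) with IL1A+TNF. Fth1 was 322, 331, 364, 387 and 404 CPM with PBS and between 594 and 872 CPM (median 635) with IL1A+TNF. The light chain rose 2.98-fold (log2 fold change 1.58 ± 0.22, adjusted p = 5.84e-05) and the heavy chain 1.81-fold (0.86 ± 0.14, adjusted p = 0.000158). Slc11a1 rose 3.69-fold (log2 fold change 1.88 ± 0.32, adjusted p = 0.000303), and Blvrb, from 2.77-3.47 to 4.07-6.40 CPM, 1.57-fold (0.65 ± 0.15, adjusted p = 0.00398). WT IL1A+TNF replicate 1, from a mouse with no PBS retina among the samples, was the highest of its group for Hmox1, Blvrb, Cp, Slc40a1, Fth1, Ftl1 and Slc11a1. Without it all 8 genes were called as before.

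Sarm1-/- retinas were compared with WT to see whether the response needed Sarm1. In Sarm1-/- mice IL1A+TNF also called all 8 genes in the same directions, against 30.8% of 19668 genes tested. That share was 13.1% without Sarm1-/- IL1A+TNF replicate 4 and 41.3% without replicate 1. Hmox1 was 7.94, 10.4, 10.5, 11.9, 16.7 and 16.95 CPM in the PBS retinas and 28.3, 86.9, 122, 200.3, 435 and 558 CPM in the IL1A+TNF retinas. The groups did not overlap, and the log2 fold change was 3.78 ± 0.54 (adjusted p = 0.000362). Both the lowest and the highest Hmox1 values of all IL1A+TNF retinas of batch 2 were thus in Sarm1-/- mice.

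One Sarm1-/- mouse stood apart. Its IL1A+TNF retina (replicate 1) lay close to its own PBS retina for Cp (1197 against 1234 CPM), Slc40a1 (7.57 against 8.07), Tfrc (261 against 244), Ftl1 (235 against 223) and Slc11a1 (5.94 against 6.42), and for Hmox1 at 28.3 against 16.95 CPM. In the other 5 Sarm1-/- mice Hmox1 was at least 86.9 CPM in the IL1A+TNF retina. Cp also stood apart in the PBS retinas of 2 Sarm1-/- mice (replicates 1 and 2), at 1234 and 1454 CPM, while the other 4 lay between 421 and 628 CPM. In both of these mice Cp was no higher in the IL1A+TNF retina (1197 and 1301 CPM), and it was higher in 4 of 6 Sarm1-/- mice, with ratios from 0.894 to 3.72. Those same PBS retinas had 9 neutrophil markers summing to 105 and 102 CPM, where the other 4 had between 5.14 and 16.95 CPM. Without Sarm1-/- PBS replicate 1 or 2 the log2 fold change of Cp, given next with all retinas, was 1.11 or 1.18, and it was called both times.

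With all 12 Sarm1-/- retinas the log2 fold changes were 0.97 ± 0.25 for Cp (adjusted p = 0.0126), 0.75 ± 0.18 for Slc40a1 (0.0094), -0.62 ± 0.16 for Tfrc (0.0122), 0.61 ± 0.13 for Fth1 (0.00468), 1.24 ± 0.21 for Ftl1 (0.00107), 1.42 ± 0.30 for Slc11a1 (0.00476) and 0.46 ± 0.14 for Blvrb (0.0267). Without both retinas of the mouse of replicate 1, all 8 genes were called, against 41.5% of all genes tested, with log2 fold changes of 4.36 for Hmox1, 1.16 for Cp, 0.93 for Slc40a1 and -0.76 for Tfrc. Blvrb was the least stable call, and was lost without Sarm1-/- IL1A+TNF replicate 5 (adjusted p = 0.0635) or PBS replicate 3 (0.0683). Of the 8 genes, Hmox1 and Fth1 had groups that did not overlap in Sarm1-/- mice, against 8 of 8 in WT. For Blvrb, Slc40a1, Ftl1 and Slc11a1, 5 of 6 IL1A+TNF retinas were above every PBS retina, and for Cp 2 of 6. For Tfrc 5 of 6 were below every PBS retina. The contrast between genotypes in overlap was not tested, and the share of all genes without overlap is not given here.

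**Figure D3:**
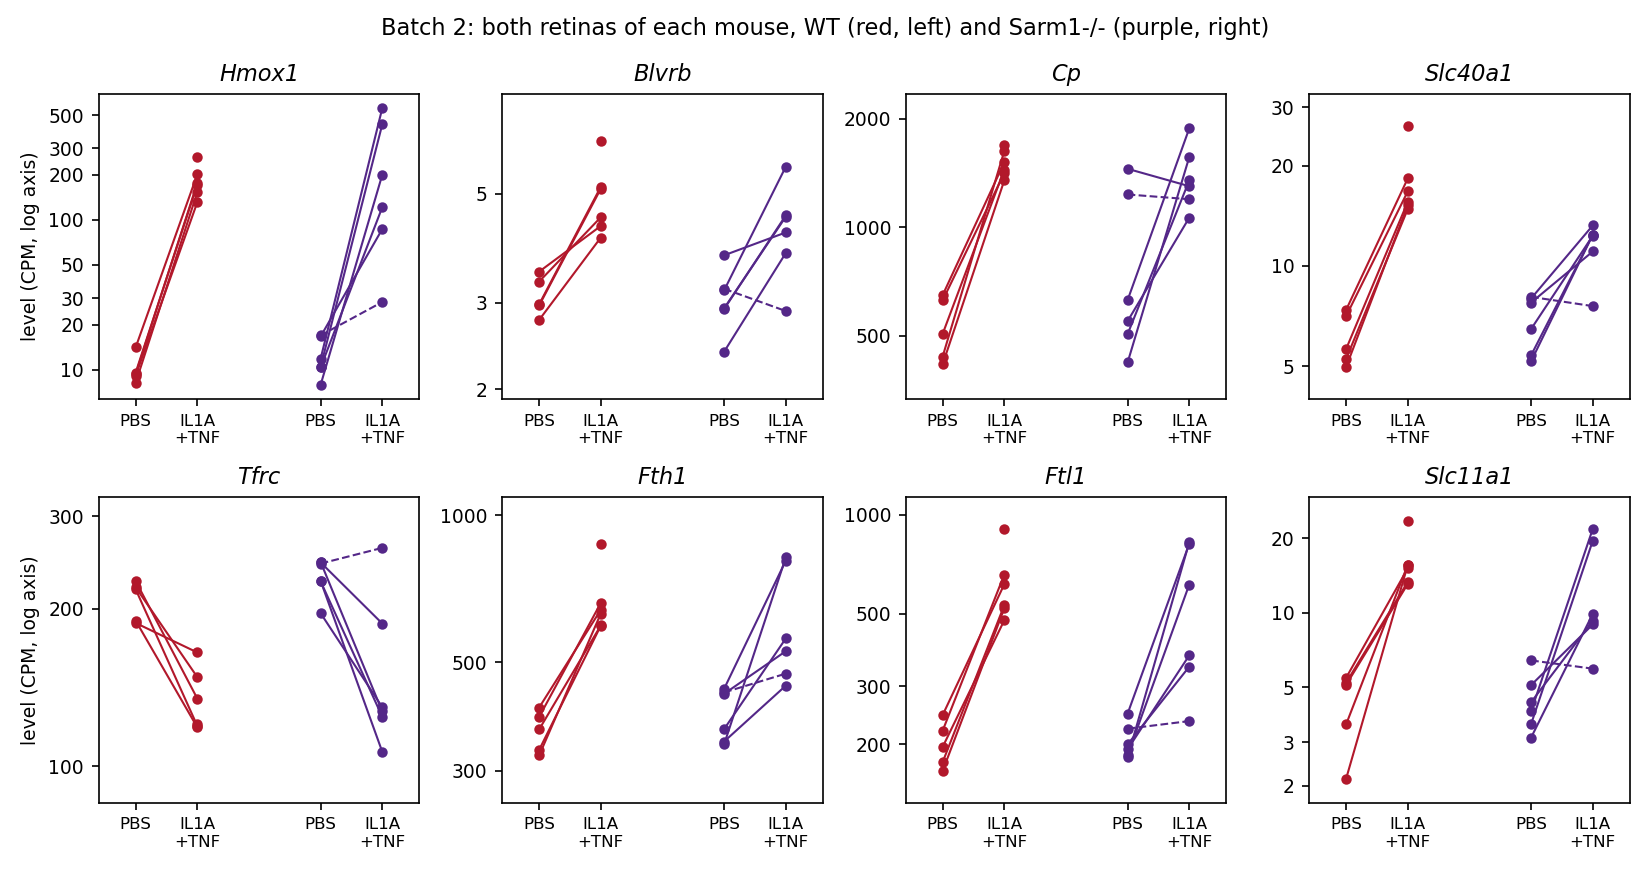
Levels of the 8 genes (CPM, log axes) in the PBS and IL1A+TNF retinas of batch 2, with WT mice in red at the left and Sarm1-/- mice in purple at the right of each panel. Lines join the retinas of 1 mouse, the dashed line is the mouse of Sarm1-/- IL1A+TNF replicate 1 (Hmox1 16.95 to 28.3 CPM), and the point without a line is WT IL1A+TNF replicate 1.

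Genotype differences did not pass in any of the 8 genes within batch 2. Between PBS retinas 0.0102% of all genes were called and none of the 8, with Hmox1 at a log2 difference of 0.14 (95% interval -1.16 to 1.45) and Cp at 0.47 (-0.01 to 0.95). For the difference of the IL1A+TNF effect between genotypes, 0% of all genes were called by limma (0 of 19668, with 1125 at an unadjusted p under 0.05), 0 by edgeR and 13 by DESeq2. For Hmox1 it was -0.36 (95% interval -1.95 to 1.24), an interval that holds differences of more than 2-fold either way, and it was 0.04 without Sarm1-/- IL1A+TNF replicate 1 and 0.235 without both retinas of that mouse. For Slc40a1 it was -0.77 (-1.29 to -0.26), with an adjusted p of 0.814 over all genes. When batch 1 retinas were fitted together with batch 2, the Slc40a1 difference was -0.59 with an adjusted p of 0.0167, among 1763 genes called (8.75% of those tested). That fit includes the batch 1 retinas whose values chose the genes, so its p is not an independent test of Slc40a1.

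In the retinas themselves Slc40a1 was 7.57, 11.1, 12.3, 12.4, 12.4 and 13.2 CPM in the Sarm1-/- IL1A+TNF group, below the lowest WT retina at 14.8 CPM. That contrast was not among the tests. The 9 monocyte and macrophage markers summed to 396 ± 171 CPM (SD, n = 6) in the Sarm1-/- and 594 ± 153 CPM (n = 6) in the WT IL1A+TNF retinas, and the 9 neutrophil markers to 342 ± 239.5 and 335.5 ± 199 CPM. The 9 microglia markers summed to 138 ± 21.3 and 205 ± 20.1 CPM, and these ranges, 106-169 and 171-226 CPM, did not overlap. Their part in the Slc40a1 difference was not tested.

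Markers of blood-borne and resident phagocytes moved with the 8 genes, all of which such cells can express. In WT batch 2 the monocyte and macrophage markers, with Lyz2 the most abundant, summed to 51.3 ± 22.6 CPM with PBS (21.6-84.3) and 594 ± 153 CPM with IL1A+TNF (478-886), and 6 of 9 were called higher. Neutrophil markers, led by Csf3r, summed to 12.2 ± 7.01 CPM (6.17-21.9) and 336 ± 199 CPM (147-674), with 4 of the 7 tested called higher. The microglia markers, led by Csf1r with IL1A+TNF, summed to 105 ± 12.2 and 205 ± 20.1 CPM, with 5 called higher and 1 lower of 9. With IL1A alone 8 of 9 monocyte and macrophage markers and 6 of the 8 neutrophil markers tested were called higher, and with TNF none of either. The sum of the monocyte and macrophage markers with TNF was nevertheless 182 ± 106 CPM (6.80-316, n = 8), against 54.0 ± 33.3 CPM (14.1-132, n = 31) with PBS, and their median log2 fold change was 0.68. TNF called 2 of 9 microglia markers higher. No marker of these lists was at 0 in every retina of these groups, and their part in the 8 genes was not tested.

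Red cell markers were not called in WT retinas in which Hmox1 rose. Of the 5 tested, 0 were called in WT batch 2, where they summed to 23.4 ± 4.49 CPM with PBS and 25.6 ± 8.58 CPM with IL1A+TNF, and 0 with IL1A. In Sarm1-/- mice they summed to 23.4 ± 6.33 and 46.7 ± 32.0 CPM, and 3 of 5 were called higher. The IL1A+TNF retinas with the highest Hmox1 (replicates 5 and 4, at 558 and 435 CPM) had sums of 47.5 and 93.4 CPM, and replicate 3, with 200.3 CPM of Hmox1, had 76.9 CPM. Replicates 5 and 4 also had the highest sums of their group for neutrophil markers (610 and 658 CPM) and for monocyte and macrophage markers (601 and 599.8 CPM). They had the lowest sums for 7 retinal ganglion cell markers (79.1 and 95.6 CPM, where the Sarm1-/- PBS retinas had 571 to 630.1 CPM) and for Müller glia markers (1687 and 1290.0 CPM). Replicates 3, 4 and 5 are the females of this group, all above its 3 males in Hmox1 (28.3 to 122 CPM) and below them in ganglion cell markers (79.1-258 against 482-589 CPM), and this sex difference within batch 2 was not tested. The 6 markers of lens, another tissue of the eye, led by Cryaa, summed to 5193 CPM in replicate 5 (0.278-434 CPM in the other 5) and to 4367 CPM in Sarm1-/- PBS replicate 1 (0.454-2.40 CPM in the other 5). Among WT retinas of the batch they reached 3898 CPM in IL1A+TNF replicate 3 and 1049 CPM in PBS replicate 5. The part of these markers in Hmox1 was not tested.

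Markers of neurons, other glia, pigment epithelium and endothelium were followed as well. In WT batch 2 the 5 cone markers summed to 803 ± 77.3 CPM with PBS and 300.4 ± 83.2 CPM with IL1A+TNF, and all 5 were called lower. The Müller glia markers summed to 3778 ± 502 and 2658 ± 246 CPM, with 2 of 7 called higher and 2 lower. Retinal ganglion cell markers summed to 583 ± 12.4 and 444 ± 79.9 CPM, with each IL1A+TNF retina (294-516 CPM) below each PBS retina, with 0 of 7 called, and to 593 ± 20.7 and 340.2 ± 226 CPM in Sarm1-/- mice, with 7 of 7 called lower. The genotype by treatment test called 0 of 7, and 5 of 7 were called lower with IL1A and 6 of 7 with IL1A+TNF in WT retinas of batch 1. The 5 astrocyte markers, led by Gfap, summed to 146 ± 29.3 and 343 ± 84.1 CPM in WT batch 2, with 3 called higher. The 7 pigment epithelium markers, led by Tyrp1, summed to 329 ± 205 and 158 ± 104 CPM there, with 1 called lower (median log2 fold change -1.47), and to 178 ± 112 CPM with PBS and 98.0 ± 102 CPM with TNF in batch 1, also with 1 called lower (-1.54). The 5 endothelium markers, led by Flt1, summed to about the same with PBS and IL1A in batch 1 (179.7 ± 14.2 and 179.7 ± 13.1 CPM), with 4 called higher and 1 lower, and 2 were called higher in WT batch 2. CPM values are shares of a library, and the part of these markers in the 8 genes was not tested.

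The ratio of the ferritin chains, which was described and not tested, differed between treatments and days. Per kilobase of exon, Fth1 was 0.756 ± 0.094 of Ftl1 in PBS retinas of day 2 (SD, n = 31), 0.696 ± 0.087 with TNF (n = 8), 0.635 ± 0.076 with IL1A (n = 9) and 0.444 ± 0.042 with IL1A+TNF (n = 10). In WT retinas of batch 2 it ranged from 0.637 to 0.772 with PBS and from 0.371 to 0.482 with IL1A+TNF, with no overlap. In Sarm1-/- mice it ranged from 0.689 to 0.835 and from 0.352 to 0.779, the last value in replicate 1. In PBS retinas of day 35 the ratio was 0.983 ± 0.043 (n = 6). Light chain mRNA thus made up a larger share of ferritin mRNA after IL1A+TNF and a smaller one at the later days. Ferritin pseudogenes could take reads from the parent genes, which held 99.5% (Ftl1) and 99.7% (Fth1) of the counts of parent and copies together. The Ftl1 exons also overlap a small RNA gene and, over 355 bases, a gene on the opposite strand, whose reads may not be separable from those of Ftl1.

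**Figure D4:**
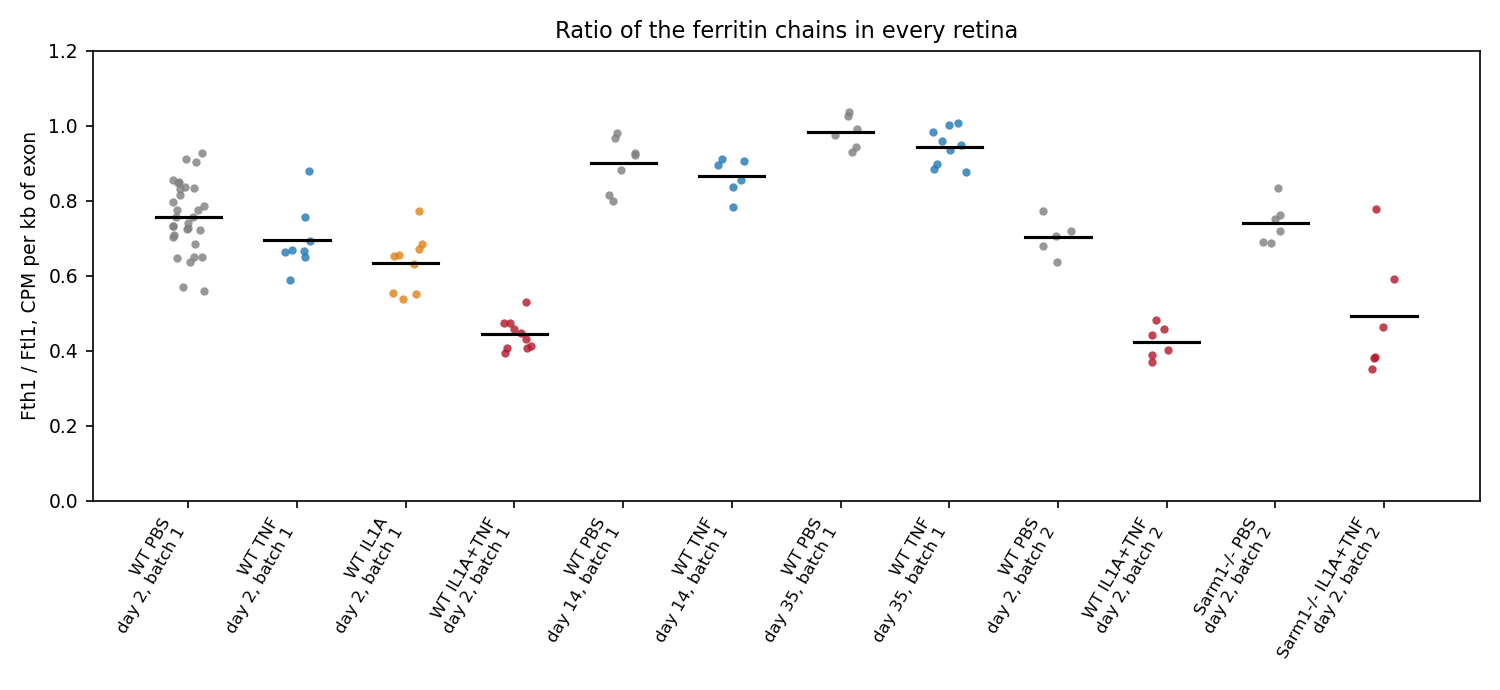
Ratio of Fth1 to Ftl1, each as CPM per kilobase of exon, in every retina (points) by group, with the group mean as a bar. IL1A+TNF retinas of batch 1 lie between 0.394 and 0.530, below all 31 PBS retinas of day 2 (0.560 to 0.927).

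Other heme and iron genes were taken as lists by role. These lists also hold genes of the 8, so their counts and medians are not separate from the choice of genes. Over all genes tested, 12% were higher and 9.45% lower with IL1A, 13.3% and 7.55% in WT and 16.4% and 14.4% in Sarm1-/- IL1A+TNF retinas, and the counts below stand beside these shares. In the heme breakdown list, Hmox2, the constitutive heme oxygenase, stood at 34.0 ± 0.81 CPM with PBS and 34.7 ± 1.70 CPM with IL1A+TNF in WT batch 2 (log2 fold change 0.03 ± 0.06, adjusted p = 0.738). Blvra, the main biliverdin reductase of adults, stood at 12.4 ± 0.60 and 14.0 ± 1.54 CPM (0.17 ± 0.08, adjusted p = 0.15). The list therefore had 2 of 4 genes higher, Hmox1 and Blvrb, in IL1A, WT and Sarm1-/- IL1A+TNF retinas alike, and 0 with TNF. Both are among the 8 chosen genes, so this count restates them. The median log2 fold change of the list, which includes them, was 0.41 in WT batch 2, against -0.02 over all genes tested.

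The heme transport and scavenging list held Hp (haptoglobin, which binds free hemoglobin and is also stored in neutrophils). It was 0.777 ± 0.483 CPM with PBS and 13.8 ± 11.4 CPM with IL1A+TNF in WT batch 2 (log2 fold change 3.84 ± 1.15, adjusted p = 0.0218), and rose with IL1A (2.52 ± 0.40, adjusted p = 1.71e-06), by as much in size as Hmox1 did (2.36). Abcg2, a heme and drug exporter, and Cd163, the macrophage receptor for the haptoglobin-hemoglobin complex, also rose in WT batch 2 (0.33 ± 0.08 and 0.96 ± 0.29). Of 8 genes in the list, 3 were higher with IL1A, 3 in WT and 1 in Sarm1-/- IL1A+TNF retinas, against 12%, 13.3% and 16.4% of all genes, so that the Sarm1-/- count was near the share of all genes.

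In the iron uptake list of 14 genes, 6 were higher and 2 lower with IL1A, 4 higher and 1 lower in WT IL1A+TNF retinas, and 4 higher and 3 lower in Sarm1-/- IL1A+TNF retinas, where 21.4%, 20.9% and 30.8% of all genes were called in either direction. Lcn2 (lipocalin 2, which captures iron-loaded siderophores and is a marker of reactive astrocytes) was 101 ± 43.3 CPM with PBS and 599 ± 79.3 CPM with IL1A+TNF in WT batch 2 (log2 fold change 2.73 ± 0.61, adjusted p = 0.00327). Steap4, a metalloreductase, was 20.6 ± 7.32 and 87.1 ± 26.9 CPM (2.15 ± 0.54, adjusted p = 0.00787). The change of Steap4 in Sarm1-/- mice, 1.00 ± 0.45, did not pass (adjusted p = 0.0923), and its PBS retinas ranged there from 16.9 to 145 CPM. Slc39a14, an importer of free iron, rose by 0.21 ± 0.04 with IL1A. The median log2 fold change of the list in WT batch 2 was 0.23.

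In the iron storage list 4 of the 5 genes tested were called in WT batch 2. Ncoa4, the receptor that carries ferritin to lysosomes for breakdown, rose in WT batch 2 (log2 fold change 0.22 ± 0.06, adjusted p = 0.0124) and Pcbp2, an iron chaperone, fell (-0.19 ± 0.06, adjusted p = 0.0294), beside Fth1 and Ftl1, so that 3 were higher and 1 lower of the 5 tested of 6. Heph (hephaestin), the other ferroxidase of the retina, did not pass in WT mice (-0.22 ± 0.21, adjusted p = 0.461) and was lower in Sarm1-/- IL1A+TNF retinas (-0.68 ± 0.21, adjusted p = 0.027). Hamp, which encodes hepcidin, the peptide that removes ferroportin from the membrane, was near the detection limit at 0.322 ± 0.073 CPM with PBS and 0.235 ± 0.141 CPM with IL1A+TNF.

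Of 12 genes for iron sensing and hepcidin control, 0 were called with IL1A, 1 higher in WT (Smad1, 0.18 ± 0.06) and 1 lower in Sarm1-/- IL1A+TNF retinas (Neo1, -0.25 ± 0.08), with a median of -0.01 in WT batch 2. Aco1 and Ireb2, named for encoding the 2 iron regulatory proteins that bind the hairpins, had log2 fold changes of -0.03 ± 0.04 and 0.05 ± 0.04 in WT batch 2 and did not pass. The mitochondrial iron list had 1 of 7 genes higher with IL1A, 4 higher in WT and 2 higher and 1 lower in Sarm1-/- IL1A+TNF retinas, and the IL1A count was near the 12% of all genes called higher. Slc25a37 (mitoferrin 1, which brings iron into mitochondria) went from 137 ± 44.4 to 233 ± 42.1 CPM in WT batch 2 (0.83 ± 0.24, adjusted p = 0.017).

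Among 8 regulators of Hmox1, Nfe2l2 (NRF2, an activator of its transcription) and Bach1 (a heme-sensitive repressor) were both higher in WT batch 2. Nfe2l2 was 37.6 ± 2.36 CPM with PBS and 52.1 ± 4.70 CPM with IL1A+TNF (log2 fold change 0.45 ± 0.13, adjusted p = 0.016), and Bach1 31.8 ± 1.56 and 46.1 ± 4.81 CPM (0.52 ± 0.11, adjusted p = 0.00227). In all, 3 were higher and 1 lower with IL1A and in WT batch 2, and 4 higher in Sarm1-/- IL1A+TNF retinas. Of 8 other NRF2 targets 2 were higher with IL1A, 2 in WT batch 2 and 3 in Sarm1-/- IL1A+TNF retinas, where 12%, 13.3% and 16.4% of all genes were higher, and with so few genes these counts are not a result about NRF2 targets. Osgin1 had the smallest adjusted p in WT batch 2 (1.62 ± 0.39, adjusted p = 0.00515) and Srxn1 rose by 0.30 ± 0.10. TNF alone called 0 genes in each of these role lists at day 2.

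The 8 genes also differed between PBS retinas of different days. The days are those of each sample's time label, while the protocol text of the labels gives harvest at 2 days for every sample. An F test over days 2, 14 and 35 called 7 of the 8, all but Fth1 (adjusted p = 0.304), against 35.9% of 19372 genes tested. Its 31 retinas of day 2 are also the PBS retinas of the comparison that chose the genes. Hmox1 lay between 2.74 and 5.36 CPM at day 14 (n = 7, of which 2 are from 1 mouse, a pairing the test did not model) and between 2.04 and 3.71 CPM at day 35 (n = 6), and every day 35 retina was below every day 2 PBS retina of batch 1. Cp lay between 224 and 328 CPM at day 14 and between 187 and 256 CPM at day 35, below all 31 PBS retinas of day 2. Relative to day 2, the log2 differences at days 14 and 35 were -1.16 and -1.49 for Hmox1 (adjusted p = 2.96e-05) and -1.09 and -1.33 for Cp (9.09e-12).

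Slc11a1 was lower by day 35 too (-0.54 and -1.82, adjusted p = 5.98e-05), as were Ftl1 (-0.33 and -0.50, 0.000225), Blvrb (-0.43 and -0.63, 0.000955) and Slc40a1 (-0.14 and -0.32, 0.0117). Tfrc was higher at both later days (0.23 and 0.22, adjusted p = 0.00228). PBS retinas of day 2 thus stood on the side of the IL1A+TNF retinas for these 7 genes. With TNF at day 2 the log2 fold change of Tfrc was 0.11 (95% interval -0.03 to 0.24) and did not pass (adjusted p = 0.786 by limma). Over the same days the sums of the monocyte and macrophage markers ranged over 14.1-132, 11.6-27.5 and 5.57-10.1 CPM, and the neutrophil markers averaged sums of 26.5, 2.22 and 1.63 CPM and the microglia markers of 99.2, 60.6 and 46.8 CPM. One of the 9 neutrophil markers was at 0 in the PBS retinas of day 14 and of day 35. The day of dissection and anything processed together with it cannot be told apart, and the part of the markers was not tested.

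**Figure D5:**
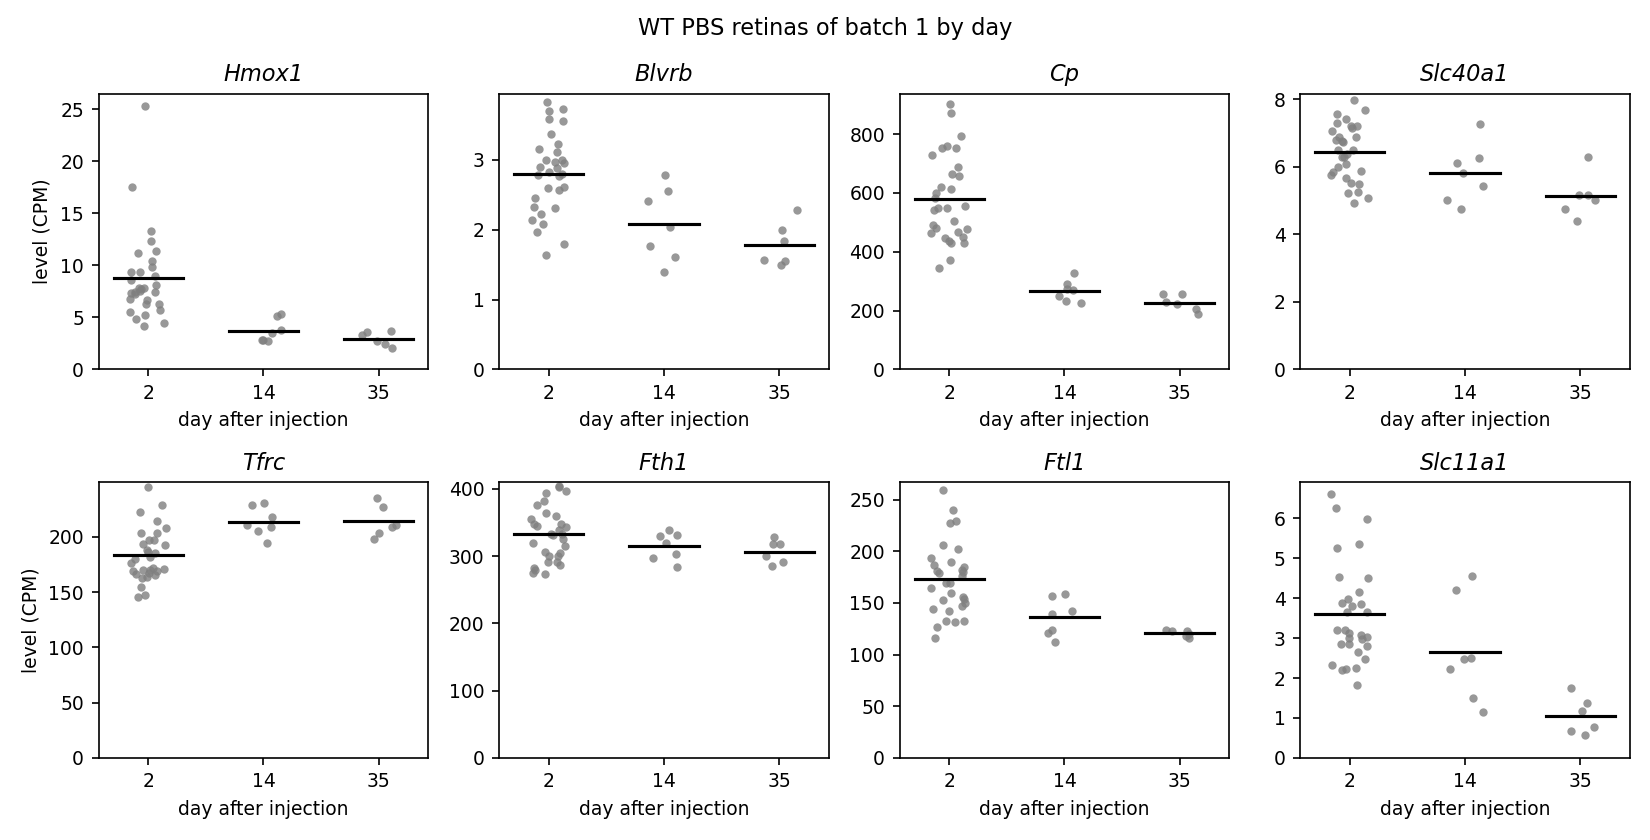
Levels of the 8 genes (CPM, linear axes from 0) in WT PBS retinas of batch 1 at 2, 14 and 35 days after injection (31, 7 and 6 retinas as points), with the mean as a bar. The mean of Cp goes from 580 to 267 and 226 CPM, and that of Tfrc from 184 to 214 and 214 CPM.

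TNF called none of the 8 genes at the later days. At day 14, 0% of 18023 genes and 0 of the 8 were called by limma (838 genes at an unadjusted p under 0.05), and Hmox1 lay between 2.73 and 4.74 CPM (log2 fold change -0.01, 95% interval -0.36 to 0.33). At day 35, 0% of 17821 genes and 0 of the 8 were called (871 at an unadjusted p under 0.05), and Hmox1 lay between 2.27 and 2.96 CPM (-0.15, -0.38 to 0.08). The edgeR and DESeq2 tests also called 0 genes at both days. Tfrc had the smallest unadjusted p of the 8 at day 14 (-0.15 ± 0.05 SE, adjusted p = 0.888).

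PBS retinas of day 2 were also compared by what the other eye had received. An F test over 23 PBS retinas whose fellow eye had TNF, IL1A or IL1A+TNF called 0% of 18702 genes and 0 of the 8 (625 genes at an unadjusted p under 0.05, with 0 called by edgeR and DESeq2). Hmox1 had medians of 6.74 CPM (n = 8), 7.87 CPM (n = 7) and 7.77 CPM (n = 8) in these PBS retinas. Female and male retinas of batch 1 differed in 0.363% of genes at day 2 and in none of the 8 (Hmox1 log2 difference, female minus male, 0.26 ± 0.16, adjusted p = 0.605).

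Ordered by mean level, the 12 groups ran for Hmox1 from Sarm1-/- IL1A+TNF (238 CPM) through WT IL1A+TNF of batch 2 (183 CPM) and batch 1 (139 CPM), IL1A (48.3 CPM) and TNF of day 2 (15.4 CPM) to the day 2 PBS groups (12.4 CPM in Sarm1-/-, 10.1 CPM in WT batch 2 and 8.77 CPM in WT batch 1). The groups of the later days came last, from TNF at day 14 (3.98 CPM) and PBS at day 14 (3.73 CPM) to PBS (2.95 CPM) and TNF (2.67 CPM) at day 35. Each pair of neighbours in this order overlapped in the ranges of their retinas. The highest mean rests on the retinas at 435 and 558 CPM, and by median WT IL1A+TNF of batch 2 (174 CPM) was above Sarm1-/- IL1A+TNF (161 CPM).

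Within groups, retinas with more Hmox1 also had more Ftl1. Over all retinas, after the mean of each group was removed from log2 CPM, Ftl1 had the highest Pearson correlation with Hmox1 of 15130 genes (0.824), followed by Runx1 (0.809), Plin2 (0.786), Spp1 (0.784) and Shisa5 (0.784). Of the other genes followed here, Slc11a1 had 0.688, Fth1 0.683, Cp 0.597, Slc40a1 0.535, Blvrb 0.427 and Tfrc -0.48, while Fth1 and Ftl1 had 0.849 with each other. The summed markers of monocytes and macrophages had 0.652, of neutrophils 0.601, of astrocytes 0.596, of microglia 0.372, of erythrocytes 0.167, of Müller glia -0.367, of retinal ganglion cells -0.579 and of cones -0.604 with Hmox1. Over the 12 group means the genes most like Hmox1 were Ostf1 (0.997), Plin2 (0.996), Bin3 (0.995), Wipf1 (0.995) and Il4ra (0.994). Within groups the Spearman rank correlation with Hmox1 was 0.734 for Ftl1, 0.733 for Shisa5, 0.72 for Runx1, 0.681 for Spp1 and 0.662 for Plin2. These correlations describe the retinas, which share libraries and, in pairs, a mouse, and carry no test. Hmox1 spread most in Sarm1-/- IL1A+TNF retinas (SD 88.6% of the mean), and the weight of this group in them was not tested.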

How the data were processed

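Retinal polyA RNA was sequenced as 150 bp read pairs (KAPA mRNA HyperPrep, NovaSeq). Per the labels, the authors aligned pairs to mm10 with STAR 2.7.9a and counted them per gene with featureCounts (Subread 2.0.1), and deposited whole-number counts without normalization. The annotation release and the strand setting are not given in the sources used here, so reads of Cp and Hps3, which overlap on opposite strands, may not be separable. Symbols and positions for 35533 of 37315 genes came from GENCODE M21 (GRCm38).

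The software was DESeq2 1.42.0, edgeR 4.0.16, statmod 1.5.0 and limma 3.58.1 under R 4.3.3. A low-count filter, filterByExpr, was applied first (minimum count 10, minimum total 15, proportion 0.7, large groups from 10). Counts were scaled by TMM and fitted with limma-voom, a sex term and duplicateCorrelation with mouse as block in 2 rounds, which takes the pairing from the mouse in the labels. Its correlation within mice was 0.0515 at day 2 and -0.0763 in batch 2. The PBS comparisons had no block. Batch 2 was fitted alone, where the study's model joined both batches (an alternative here). Adjusted p values are Benjamini-Hochberg over all genes tested, called under 0.05. Tests were checked on simulated counts, and the outcome of that check is not given here. CPM values use 1 set of TMM factors over all retinas, and correlations a prior count of 2. Library totals of 30014757 to 79064488 counts set the precision of low genes.

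The 8 genes, the role and marker lists and the tests were chosen with earlier results of these data known. Beside the 8 genes, up to 4 genes per list and comparison are named by smallest adjusted p; Hmox2, Blvra, Heph, Hamp, Aco1 and Ireb2 are named for their roles where they are not among these. Alternatives were edgeR, DESeq2, RLE scaling, no filter, no block, both batches fitted jointly, mouse entered as a fixed factor, single retinas left out, and ferritins summed with pseudogenes. Results for a few genes of these lists are not reported here.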

Additional observations from a re-analysis of the deposited data

Results flagged for a closer look

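In groups of 4 to 10 retinas the highest and lowest values of the 8 genes were compared with the rest by Dixon's gap ratio at the 95% level, and 5 of 88 tests of a gene in a group were past it, a share that chance alone would give at about 1 in 20. In WT IL1A+TNF retinas of batch 2 the highest Slc40a1 (26.4 CPM), Fth1 (872 CPM) and Slc11a1 (23.5 CPM) values each stood apart, and all 3 came from replicate 1, the mouse with no PBS retina among the samples. In WT PBS retinas of batch 2 the highest Hmox1 value (14.1 CPM, replicate 1) stood apart from the other 4, which ended at 9.56 CPM. In WT TNF retinas of day 14 the highest Cp value was 414 CPM, in a group with a median of 285 CPM.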

How the results depend on the processing

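The log2 fold changes of the 8 genes were recomputed 1416 times over 40 settings: 1371 kept their direction and side of the threshold, 40 changed sign, 3 gained a call (Hmox1 and Slc11a1 with TNF without TNF replicate 6, and Slc40a1 for genotype by treatment in the joint fit) and 2 lost it (Blvrb in Sarm1-/- mice). The joint fit includes the batch 1 retinas whose values chose the genes, so the call gained in it is not an independent test. Of the values that changed sign, 0 were called by either model. For genotype in PBS retinas Ftl1 (0.007 in the main model) was -0.001 with edgeR and with DESeq2, -0.04 in the joint fit and -0.049 without both retinas of the Sarm1-/- mouse that stood apart, where Hmox1 was -0.01 (0.145) and Slc11a1 -0.119 (0.039). Without single retinas these 3 genes ranged from -0.079 to 0.131, from -0.09 to 0.342 and from -0.14 to 0.176, and Blvrb from -0.081 to 0.051. For genotype by treatment Tfrc (0.012) was -0.005 with no filter, -0.018 with the mouse as a fixed factor, -0.043 in the joint fit and -0.122 without both retinas of that mouse, where Hmox1 (-0.358) was 0.235. Without single retinas they ranged from -0.136 to 0.105 and from -0.66 to 0.043. For TNF at day 14 Hmox1 (-0.014) was 0.035 with edgeR and 0.034 with DESeq2 and without the block, and at 0 to 3 decimals with no filter. The main model had the replicate block. With the mouse as a fixed factor the counts of genes called were 2116 for IL1A, 21 for TNF at day 2, 2286 for WT and 3593 for Sarm1-/- IL1A+TNF retinas of batch 2 and 2 for TNF at day 35 (4193, 128, 4110, 6064 and 0 with the block as a random effect), and no call among the 8 genes changed with it or without the block. For TNF at day 2 edgeR called 242 genes and DESeq2 268. For genotype in PBS retinas DESeq2 called 6 and the joint fit 8, against 2. For genotype by treatment DESeq2 called 13 and the joint fit 1763, 1 of them among the 8 genes, against 0. The joint fit called 11043 genes for IL1A+TNF in WT retinas, a change pooled over both batches and so not a result of batch 2 alone. Without both retinas of that mouse, 8126 genes were called in Sarm1-/- mice (6064 with it). The causes of these shifts were not tested.

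Leaving out single retinas, genes called ranged from 17 (without TNF replicate 7) to 443 (without replicate 6) for TNF at day 2 (0 to 2 of the 8 genes), from 2544 (without WT PBS replicate 4) to 4876 in WT batch 2 (8 of the 8 genes), from 2567 to 8118 in Sarm1-/- batch 2 (7 to 8 of the 8 genes) and from 2 to 4 (without Sarm1-/- PBS replicate 6) for genotype in PBS retinas. Settings that left out other retinas of batch 2 than WT PBS were chosen after seeing the data. In Sarm1-/- mice the counts were lowest without IL1A+TNF replicates 4 (2567) and 5 (3033) or PBS replicates 3 (2850), 4 (3442) and 5 (3841). Precision in batch 2 was limited by 5 or 6 retinas a group.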
